A study of Homo sapiens with 3 samples.

Results

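Long non-coding RNA (lncRNA) genes yield long transcripts that are not used to make protein, and many of them start within or close to regulatory elements. The peaks described here are those of p300/CBP at the start sites of such genes in MDA-MB-231 cells. A peak of either list on chromosomes 1 to 22 and X was taken when it shared at least 1 bp with the 3 kb window around the annotated start (TSS) of a lncRNA gene and touched no such window of a protein-coding gene. This gave 2021 of the 82901 peaks of the control list and 1279 of the 39320 peaks of the Fra-1-depleted list, or 3300 of 122221 peaks in all. The annotation held 18592 lncRNA genes and 20098 protein-coding genes on these chromosomes, and 14900 of the lncRNA windows were clear of protein-coding windows. A further 644 control peaks and 401 Fra-1-depleted peaks lay at a lncRNA and a protein-coding start site at once and were not taken.

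MDA-MB-231 is an established human line of triple-negative, basal b breast cancer cells. In siCTL the cells received a negative control siRNA at 4.5 nM. In siFra-1 they received a mix of 3 siRNAs that target Fra-1, at 4.5 nM in total. After 72 h they were fixed for 7 min, and chromatin was precipitated with an antibody to p300/CBP. Peak positions carry no measure of the Fra-1 protein, so the depletion could not be checked here. The series has 3 samples, and the input DNA sample was not analysed here. Each condition is 1 library made from pooled immunoprecipitations, so no difference between siCTL and siFra-1 can be set against a spread between replicates, and no test was possible. The lists give positions alone, with neither height nor read number, so the depth is unknown and width is the only size a peak has. Shares, differences and ratios are given with 95% intervals of counting error alone, taken over peaks, and neighbouring peaks are not independent.

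Fra-1, the product of FOSL1, binds DNA as a heterodimer with Jun proteins, the complex known as AP-1, at the sequence TGAGTCA or its reverse complement TGACTCA. The acetyltransferases p300 and CBP are brought to enhancers and promoters by transcription factors, AP-1 among them, and acetylate histones there. Active enhancers are often transcribed, and a lncRNA annotated at such a place can have its start inside an enhancer.

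Among the 7 motifs searched, the AP-1 motif was the one on which wide peaks found in siCTL alone and in siFra-1 alone differed most at lncRNA start sites. Stretches of 60 bp around it are shown for 6 siCTL-only peaks, for 1 peak of both lists at CYTOR and NCAL1, for 1 peak that was narrower in siFra-1 (ENSG00000285517) and for 1 siFra-1-only peak (NINJ2-AS1), whose motif lies outside the central 200 bp of the peak. Most of these were chosen after their motifs had been seen. Not shown are the 6 wide siFra-1-only peaks with the motif in their central 200 bp. Those 6 were at ENSG00000289882, ENSG00000286460, ENSG00000235204, ENSG00000236724, ENSG00000253586 and GAS6-AS1. A last stretch, at ENSG00000256306, holds no AP-1 motif and shows the tandem repeat under a siFra-1-only peak. Capitals mark AP-1 motifs, and all stretches are given 5′ to 3′ on the plus strand of hg19 (GRCh37).
CDC42EP3-AS1, chr2:37788958-37789017: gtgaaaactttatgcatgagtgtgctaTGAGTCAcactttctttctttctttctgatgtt
KCNMA1-AS3, chr10:79110608-79110667: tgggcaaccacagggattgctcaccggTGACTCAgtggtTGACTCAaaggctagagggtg
LUCAT1, chr5:90610238-90610297: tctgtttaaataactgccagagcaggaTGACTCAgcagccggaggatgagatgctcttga
PDLIM7-AS1, chr5:176921415-176921474: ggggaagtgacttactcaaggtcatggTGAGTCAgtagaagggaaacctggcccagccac
MIR142HG, chr17:56408798-56408857: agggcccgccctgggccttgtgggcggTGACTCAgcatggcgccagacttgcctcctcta
SCAT8, chr6:64516388-64516447: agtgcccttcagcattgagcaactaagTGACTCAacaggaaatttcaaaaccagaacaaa
CYTOR and NCAL1, chr2:87754900-87754959: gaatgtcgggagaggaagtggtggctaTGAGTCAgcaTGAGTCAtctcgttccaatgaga
ENSG00000285517, chr12:30948053-30948112: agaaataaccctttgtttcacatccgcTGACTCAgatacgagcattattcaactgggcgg
NINJ2-AS1, chr12:741746-741805: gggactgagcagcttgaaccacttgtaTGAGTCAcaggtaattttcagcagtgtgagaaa
ENSG00000256306, chr12:13679472-13679531: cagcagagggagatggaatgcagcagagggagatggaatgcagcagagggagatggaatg

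Fewer p300/CBP peaks were listed at lncRNA start sites after siFra-1, but the peaks were wider, so that the length of DNA they covered was nearly as large. The number went from 2021 to 1279, a siFra-1 to siCTL ratio of 0.633 (0.590 to 0.679). The summed width went from 0.288 Mb to 0.261 Mb, because the mean width was 142 bp in siCTL and 204 bp in siFra-1, the median being 100 bp in both. At protein-coding start sites the ratio of peak numbers was 0.578 (0.546 to 0.611) and away from both kinds of start site it was 0.465 (0.459 to 0.470), with 0.407 and 0.288 Mb covered at the former and 9.24 and 5.72 Mb at the latter. The lncRNA start-site peaks thus made up 2.44% (2.34 to 2.55) of the siCTL list on these chromosomes and 3.27% (3.09 to 3.45) of the siFra-1 list.

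The ratio of numbers turned with peak width. Of peaks of 100 bp, the smallest width in the lists, siCTL had 1490 and siFra-1 had 762, a ratio of 0.511 (0.468 to 0.558). For 150 to 200 bp the numbers were 310 and 194, a ratio of 0.626 (0.520 to 0.751). Peaks of 250 to 450 bp numbered 169 and 194, a ratio of 1.15 (0.929 to 1.42) whose interval includes equality. Those of 500 bp and over numbered 52 and 129, a ratio of 2.48 (1.78 to 3.49), and the widest were 1000 bp in siCTL and 1200 bp in siFra-1. The same turn was present in the rest of the lists, where the ratio was 0.390 at 100 bp and 2.30 at 500 bp and over for peaks away from start sites. Scaling, background subtraction and a fixed threshold were applied to each library before its list was made, and their part in these numbers was not tested.

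Wide peaks were more frequent at lncRNA start sites than in the rest of either list. Peaks of 250 bp and over, called wide here, made up 10.9% (9.65 to 12.4) of the lncRNA start-site peaks of siCTL, beside 4.40% of all siCTL peaks on these chromosomes, and 25.3% (22.9 to 27.7) of those of siFra-1, beside 15.2% of all siFra-1 peaks. The difference from all other peaks was 6.70 percentage points (5.40 to 8.14) in siCTL and 10.4 points (8.02 to 12.8) in siFra-1. Protein-coding start sites had smaller shares of wide peaks, 5.37% in siCTL and 13.1% in siFra-1, and lncRNA start sites exceeded them by 5.56 points (4.03 to 7.17) and 12.1 points (9.32 to 15.0). A window is reached more easily by a wide peak than by a narrow one. When the middle of the peak had to lie in the window, an alternative added after the data were seen, the shares were 10.5% and 24.1%.

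**Figure D1:**
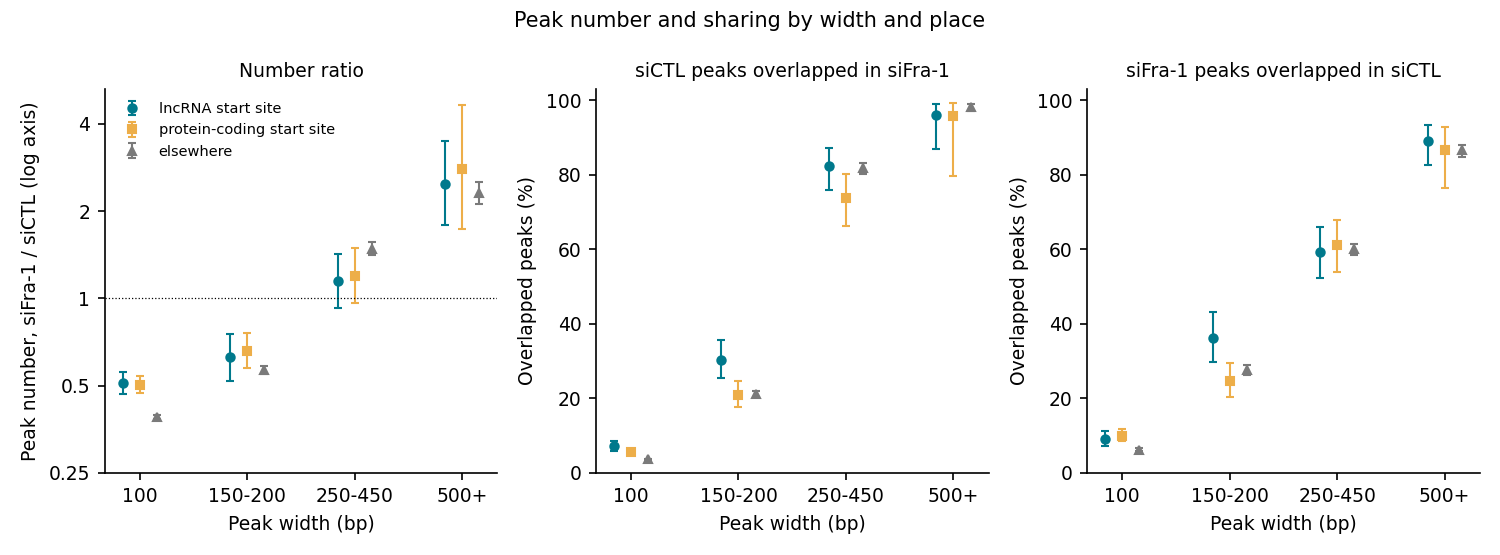
The left panel plots the ratio of peak numbers, siFra-1 over siCTL, on a log axis against peak width in bp, and the other panels plot the percentage of siCTL and of siFra-1 peaks overlapped by the other list, for lncRNA start sites, protein-coding start sites and peaks elsewhere, with 95% intervals. At lncRNA start sites the ratio climbs from 0.511 at 100 bp to 2.48 at 500 bp and over, and the overlapped share of siCTL peaks from 7.18% to 96.2%.

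About 1 in 5 of the siCTL lncRNA start-site peaks had a siFra-1 counterpart, and nearly all of the widest did, as in the whole siCTL list. A siFra-1 peak overlapped 390 siCTL peaks by at least 1 bp, or 19.3% (17.6 to 21.1), beside 9.48% of all siCTL peaks on these chromosomes. In the other direction 369 siFra-1 peaks, or 28.9% (26.4 to 31.4), were overlapped by siCTL, beside 19% of all siFra-1 peaks. The remaining 1631 siCTL and 910 siFra-1 peaks are called siCTL-only and siFra-1-only below, which says that no listed peak of the other library shared a base with them, not that signal was absent there. Of these, 32 siCTL-only and 28 siFra-1-only peaks directly adjoined a peak of the other list.

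Sharing followed width closely. In siCTL it was 7.18% (5.98 to 8.61) for peaks of 100 bp and 30.3% (25.5 to 35.7) for those of 150 to 200 bp. It reached 82.2% (75.8 to 87.3) in the class of 250 to 450 bp, and 96.2% (87.0 to 98.9) of the widest class were overlapped. In siFra-1 these classes had 9.06%, 36.1%, 59.3% and 89.1%. Over all siCTL peaks on these chromosomes the same classes had 3.75%, 21.5%, 81.4% and 98.1%. Over all siFra-1 peaks they had 6.51%, 27.7%, 59.98% and 86.7%. In the classes of 250 bp and over, sharing at lncRNA start sites was thus close to that of the whole lists. Peaks at lncRNA start sites were shared more often than all other peaks, by 10.1 points (8.39 to 11.8) in siCTL and 10.2 points (7.72 to 12.7) in siFra-1. Once the other peaks were weighted to the same widths, the difference was 3.91 points (2.18 to 5.64) and 2.89 points (0.378 to 5.40). Among wide peaks it was 0.566 points (-4.81 to 4.78) and 3.25 points (-2.05 to 8.08), with intervals that include zero. Compared with protein-coding start-site peaks at the same widths, the difference was 3.11 points (1.12 to 5.10) in siCTL and 0.606 points (-2.43 to 3.65) in siFra-1.

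Peaks present in both lists tended to be wider after siFra-1. At lncRNA start sites 295 siCTL peaks overlapped exactly 1 siFra-1 peak that overlapped nothing else, and their median width was 250 bp in siCTL and 300 bp in siFra-1. Of these pairs 162 were wider in siFra-1, or 54.9% (49.2 to 60.5), beside 50.7% of the 6455 pairs of the whole lists. Another 82 pairs were narrower, or 27.8% (23.0 to 33.2), beside 24.4% of all pairs, and 51 were equal. The shares at lncRNA start sites were therefore close to those of the lists as a whole. Where at least 1 peak of the pair was wide, 137 of 209 pairs (65.6%) were wider in siFra-1 and 57 were narrower, beside 66.0% wider over the whole lists. At protein-coding start sites 138 of all 332 pairs (41.6%) were wider in siFra-1, and 113 were equal. Where at least 1 peak of the pair was wide, 100 of 166 pairs there were wider, or 60.2% (52.6 to 67.4).

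p300/CBP peaks were concentrated at the lncRNA start itself. At the 14900 start sites clear of protein-coding windows, a base within 500 bp of the start lay in a siCTL peak in 0.823% of cases, against 0.427% between 5 and 10 kb away, 1.93 times as many. For siFra-1 the values were 0.793% and 0.293%, 2.71 times as many. The highest bins were 50 bp upstream of the start in siCTL, at 1.14%, and 150 bp upstream in siFra-1, at 1.13%, so at the start both lists covered about the same share of lncRNA genes although siFra-1 had fewer peaks. Around protein-coding starts the enrichment was 2.05 times in siCTL and 2.77 times in siFra-1. Peaks in protein-coding windows were left out around lncRNA starts, also from the flanks, but were kept around protein-coding starts. Leaving them out can lower the lncRNA flanks, so the enrichments of both kinds of start site are not directly comparable. For wide peaks alone, coverage within 500 bp of lncRNA starts was 3.69 times that of the flanks in siCTL and 3.42 times in siFra-1.

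**Figure D2:**
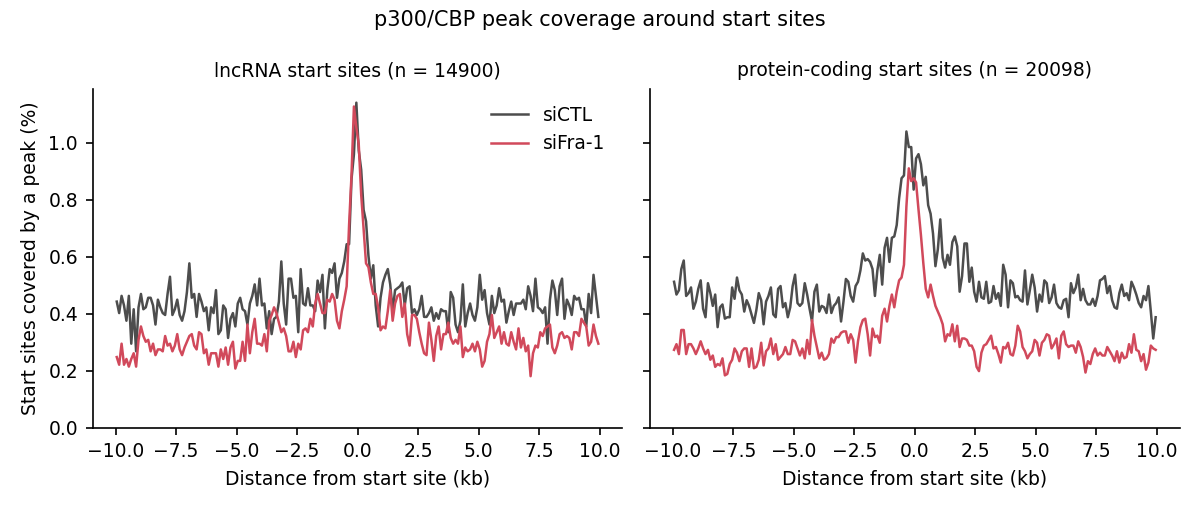
The percentage of start sites covered by a p300/CBP peak is plotted in bins of 100 bp against the distance from the start in kb, with upstream to the left, for siCTL and siFra-1. Both lines reach about 1.1% at lncRNA starts, while in the flanks the siCTL line lies near 0.427% and the siFra-1 line near 0.293%. Peaks in protein-coding windows are left out around lncRNA starts only.

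In siCTL, 1779 of the 18592 lncRNA genes (9.57%) had such a peak in their window, and in siFra-1 1101 (5.92%) did. Both lists reached 496 genes, siCTL alone reached 1283 and siFra-1 alone 605. Most genes had 1 peak, 1486 in siCTL and 885 in siFra-1, and at most 6. Windows of neighbouring lncRNA genes overlap, so 138 siCTL and 95 siFra-1 peaks counted for 2 or more genes. Among the 496 genes of both lists, the summed width of the peaks was larger in siFra-1 at 239, smaller at 149 and equal at 108.

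Peaks at intergenic lncRNAs were shared more often and were more often wide than peaks at lncRNAs inside protein-coding genes. Because peaks in protein-coding windows were not taken, genes were compared over windows clear of these. Of 9412 such intergenic lncRNA genes 10.8% (10.2 to 11.4) were reached in siCTL and 7.03% (6.53 to 7.57) in siFra-1. Of 4053 that start inside a protein-coding gene on the opposite strand, 11.1% (10.2 to 12.1) and 6.51% (5.79 to 7.32) were, and of 1283 on the same strand, 9.66% (8.17 to 11.4) and 5.53% (4.41 to 6.92) were. Divergent lncRNA genes start close to a protein-coding start on the other strand, and only 152 of 1666 had a clear window. Of these 152, siCTL reached 26, or 17.1% (11.9 to 23.9), and siFra-1 15, or 9.87% (6.07 to 15.6). Peaks were assigned to the nearest lncRNA start, and at intergenic lncRNAs 23.0% of siCTL peaks were shared, against 13.8% inside protein-coding genes, a difference of 9.20 points (5.71 to 12.6). In siFra-1 the values were 32.5% and 22.6%, a difference of 9.92 points (4.75 to 14.8). Peak widths were not matched in these comparisons, although sharing followed width. The same contrast was not made for peaks away from lncRNA start sites. Wide peaks were also more frequent at intergenic lncRNAs, by 3.53 points (0.702 to 6.22) in siCTL and 8.15 points (3.17 to 12.9) in siFra-1. The share with an AP-1 motif differed by 1.19 points (-1.65 to 3.88) and 2.34 points (-1.48 to 5.88), intervals that include zero.

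By gene symbol, LINC genes (long intergenic non-coding RNAs) were reached in 261 of 2240 cases in siCTL (11.7%) and in 171 cases in siFra-1 (7.63%), with 83 in both. Genes named for antisense position (AS) were reached in 180 of 1835 cases (9.81%) and 92 (5.01%), with 44 in both. Of the LINC windows 2140 were clear of protein-coding windows, and of the AS windows 1131. Because peaks in protein-coding windows were not taken, the shares of LINC and AS genes are not directly comparable. Of the 589 divergent transcript (DT) genes 18 and 13 were reached, and 33 of their windows were clear of protein-coding windows. The 12955 lncRNA genes without a symbol were reached at 9.34% and 5.85%, close to the shares over all lncRNA genes.

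Among the 81 host genes of microRNAs, siCTL reached 8, or 9.88% (5.09 to 18.3), and siFra-1 reached 7, or 8.64% (4.25 to 16.8), intervals that include the 9.57% and 5.92% of all lncRNA genes. MIR3150BHG was the 1 gene in both, with 100 bp in each. MIR142HG, whose microRNA is known from blood cells, had 250 bp of peak in siCTL and none in siFra-1. MIR130AHG had 250 bp in siCTL and none in siFra-1. In contrast MIR181A2HG, a host of miR-181a and miR-181b, had 350 bp in siFra-1 and no siCTL peak. The other host of this pair, MIR181A1HG, had 550 bp in siFra-1, and a siCTL peak that overlaps this peak lay outside the window.

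The AP-1 motif was more frequent at lncRNA start-site peaks than at those of protein-coding genes. The central 200 bp of each peak were searched for TGAGTCA or TGACTCA, which covers both strands. Of siCTL, 208 lncRNA start-site peaks, or 10.3% (9.04 to 11.7), held it, beside 6.15% of all siCTL peaks, and in siFra-1 150 peaks, or 11.7% (10.1 to 13.6), did, beside 9.10% of all siFra-1 peaks. At protein-coding start sites the shares were 4.98% and 6.57%. Peaks elsewhere had 6.10% and 9.14%, which is 4.20 points (2.93 to 5.61) and 2.59 points (0.908 to 4.49) under the lncRNA start sites. With peaks elsewhere weighted to the same widths, the difference was 2.12 points (0.778 to 3.47) in siCTL and 0.682 points (-1.12 to 2.48) in siFra-1, the latter interval including zero. Among wide peaks it was 3.22 points (-2.99 to 9.92) and 1.64 points (-2.90 to 6.74), and both intervals include zero. The lncRNA start sites exceeded the protein-coding ones by 5.31 points (3.83 to 6.88) in siCTL and 5.16 points (3.12 to 7.30) in siFra-1, and by 3.86 points (2.22 to 5.50) and 3.83 points (1.55 to 6.10) when protein-coding peaks were weighted to the same widths. Shared peaks held the motif most often, 25.1% in siCTL against 6.74% of siCTL-only peaks, and 27.6% in siFra-1 against 5.27% of siFra-1-only peaks. The whole lists had the same contrast, 22.3% of shared against 4.46% of unshared peaks in siCTL, and 23.0% against 5.84% in siFra-1. With the unshared lncRNA start-site peaks given the width distribution of the shared ones, the siCTL difference was 2.38 points (-9.91 to 14.7). The siFra-1 difference was 23.3 points (18.4 to 28.2). Of peaks of 500 bp and over, 50 of 52 in siCTL and 115 of 129 in siFra-1 were shared, so few unshared peaks carry the weight of this class. A class whose unshared peaks all lack the motif adds nothing to the width of these intervals, which can thus be too narrow.

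Wide peaks of 1 list only separated on this motif. Of 32 wide siCTL-only peaks at lncRNA start sites 11 held an AP-1 motif, or 34.4% (20.4 to 51.7), about the same as the 35.4% of the 189 wide shared siCTL peaks. Of 93 wide siFra-1-only peaks 6 did, or 6.45%, against 32.2% of the 230 wide shared siFra-1 peaks. The difference between siCTL-only and siFra-1-only wide peaks was 27.9 points (12.3 to 45.6). The siFra-1-only peaks were wider, with a median of 350 bp against 300 bp, and when the whole peak was searched, an alternative added after the data had been seen, 14 of 93 (15.1%, 9.18 to 23.7) and 12 of 32 (37.5%, 22.9 to 54.7) held the motif, a difference of 22.4 points (5.51 to 40.7). Over the whole lists the motif was in 25.8% of the 547 wide peaks that siCTL alone had, and in 12.6% of the 1902 that siFra-1 alone had. At protein-coding start sites it was in 14.6% of 41 such siCTL peaks and 8.75% of 80 such siFra-1 peaks. Whether the difference at lncRNA start sites departs from that of the whole lists was not tested. The motif GGAATG, bound by TEAD factors, went the other way, at lncRNA start sites with 15.6% of the wide peaks in siCTL alone and 33.3% of those in siFra-1 alone, a difference of -17.7 points (-31.1 to 0.642) whose interval includes zero. Over the whole lists this motif took the same direction, in 17.7% of the wide peaks that siCTL alone had and 27.8% of those that siFra-1 alone had. At lncRNA start sites 31 wide siFra-1-only peaks held it. Of these, the 1 at ENSG00000256306 lies on the tandem repeat printed above, in which GGAATG recurs.

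**Figure D3:**
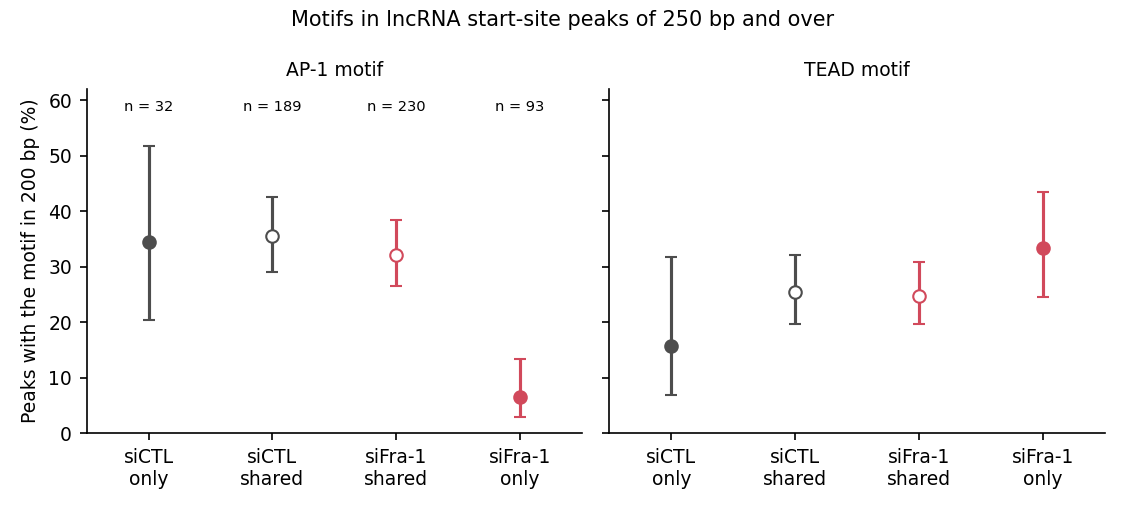
The percentage of wide lncRNA start-site peaks (250 bp and over) with an AP-1 motif or a TEAD motif in the central 200 bp is plotted with 95% intervals for peaks found in siCTL alone, peaks shared as listed in siCTL and in siFra-1, and peaks found in siFra-1 alone. The AP-1 share is between 32.2% and 35.4% in the first 3 groups and 6.45% in siFra-1-only peaks.

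In base composition lncRNA start-site peaks lay between protein-coding start sites and the rest. Their median GC content in 200 bp was 49.5% in siCTL and 50.5% in siFra-1, beside 55.0% and 56.0% at protein-coding starts and 43.5% and 44.5% elsewhere. CpG-dense sequence, defined by a GC content of at least 50% and an observed to expected CpG ratio of at least 0.6, was found in 9.15% and 10.6% of lncRNA start-site peaks, against 30.0% and 35.0% at protein-coding starts and 1.94% and 2.05% elsewhere. The motifs of SP and KLF and of ETS proteins took the same order, and that of NF-Y did not. GGGCGGG, bound by SP and KLF proteins, was in 4.30% and 5.47% of lncRNA start-site peaks, 9.26% and 11.7% of protein-coding ones and 1.19% and 1.59% of those elsewhere. CCGGAAG, bound by ETS proteins, was in 1.93% and 2.74%, 3.73% and 5.52%, and 0.649% and 1.04%. TGTGGTT (RUNX) was in 4.35% and 5.71% of lncRNA start-site peaks, and differed from peaks elsewhere by -0.174 points (-0.994 to 0.816) and -0.712 points (-1.88 to 0.719). CCAATCA (NF-Y) was in 1.98% and 2.27%, beside 1.91% and 2.10% at protein-coding starts and 2.10% and 2.01% elsewhere. TGACGTCA (the cyclic AMP response element) was in 0.247% and 0.235%. No searched motif contains another.

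The 6 widest shared siCTL peaks were found at lncRNAs known only by identifier, and 5 of them had 1 siFra-1 counterpart of similar width. The peak of 1000 bp at chr1:94790952-94791951 upstream of ENSG00000236098, in an intron of the lncRNA ARHGAP29-AS1, had a siFra-1 peak of 1000 bp. At ENSG00000257830, antisense in an intron of the hair keratin gene KRT86, 1000 bp (chr12:52674102-52675101) stood against 1050 bp. ENSG00000258082, between genes with the closest protein-coding start at TOMM20, 176 kb away, had 950 bp (chr1:235116252-235117201) in siCTL and 800 bp in siFra-1, with 1 AP-1 motif. At ENSG00000273027 the peaks, of 950 bp (chr21:46348552-46349501) and 1200 bp, lay in an exon of ITGB2-AS1 and an intron of ITGB2, which encodes the beta chain of leukocyte integrins. ENSG00000225676, near LIF, the gene of a cytokine of the interleukin 6 family, had 950 bp (chr22:30601252-30602201) and 1050 bp. Only at ENSG00000267375, in an intron of ACTN4, which encodes the actin cross-linker alpha-actinin 4, was the siCTL peak of 900 bp (chr19:39183952-39184851) matched by 2 siFra-1 peaks, of 750 bp and 100 bp.

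The 6 widest siCTL-only peaks were smaller, between 350 and 550 bp. Of 6 peaks tied at 350 bp, the 2 with their middle closest to the start were taken. At ENSG00000249417 (chr3:141086002-141086551, 550 bp) and CDC42EP3-AS1 (chr2:37788752-37789251, 500 bp) the nearest siFra-1 peak was 450 bp and 350 bp away. CDC42EP3-AS1 had a second siCTL peak of 350 bp over its start, overlapped by a siFra-1 peak of 100 bp, so the summed width in its window was 850 bp in siCTL and 100 bp in siFra-1. BCAN-AS2 (chr1:156630202-156630651, 450 bp) lay 600 bp from a siFra-1 peak. ENSG00000235070 (chr2:227050602-227051001, 400 bp) lay between genes, the nearest protein-coding start being that of IRS1, which encodes an insulin receptor substrate, and the nearest siFra-1 peak was 66550 bp away. KCNMA1-AS3 (chr10:79110402-79110751, 350 bp), in an intron of the potassium channel gene KCNMA1, held 2 AP-1 motifs and its start lay inside the peak, and the nearest siFra-1 peak was 24250 bp away. For LINC02923 (chr2:23603952-23604301, 350 bp) that distance was 13350 bp. Some of these peaks thus lay beside a siFra-1 peak and others far from one. Of all 32 wide siCTL-only peaks, 9 had a siFra-1 peak within 1 kb, and the median distance was 3.58 kb.

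The 11 wide siCTL-only peaks with an AP-1 motif in their central 200 bp were at CDC42EP3-AS1, KCNMA1-AS3, ENSG00000258902, PDLIM7-AS1, LUCAT1, ENSG00000282849, ENSG00000258623, ENSG00000274834, ENSG00000286401, SCAT8 and MIR142HG. They were singled out after their motifs had been seen. PDLIM7-AS1 lies in an intron of PDLIM7, which encodes an actin-associated LIM protein, and its siCTL peak of 350 bp (chr5:176921202-176921551) was 800 bp from a siFra-1 peak. ENSG00000258623, antisense in an intron of the recombination gene RAD51B, had a siCTL peak of 300 bp with its middle 30 bp downstream of the start. At ENSG00000282849, between genes, the middle of the 300 bp peak was 20 bp upstream of the start and the nearest siFra-1 peak 17400 bp away. SCAT8, in an intron of EYS, had a peak of 250 bp (chr6:64516302-64516551), 170250 bp from the nearest siFra-1 peak. MIR142HG had 250 bp (chr17:56408752-56409001), 750 bp from one.

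Over all, 25 lncRNA genes had a wide siCTL peak and no siFra-1 peak in their window, 10 of them with a symbol. Besides KCNMA1-AS3, LINC02923, LUCAT1, MIR142HG and SCAT8, these were ARHGEF2-AS1 (300 bp), CD44-AS1 (350 bp in all), CLDN10-AS1 (250 bp), LINC02697 (300 bp) and TFAP2A-AS2 (350 bp). The peak at CLDN10-AS1 was overlapped by a siFra-1 peak outside the window, the 1 such case among the 25. CD44-AS1 lies in an intron of CD44, the gene of a hyaluronan receptor, and TFAP2A-AS2 in an intron of TFAP2A, the gene of the transcription factor AP-2 alpha. The wide peaks of both lacked the AP-1 motif.

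More lncRNA genes, 76, had a wide siFra-1 peak and no siCTL peak in their window, 19 of them with a symbol. These 76 are 0.409% of all lncRNA genes, beside 0.134% for the 25 of siCTL. The lists as a whole leaned the same way, with 1902 wide peaks in siFra-1 alone and 547 in siCTL alone. At 7 of the 76 a siCTL peak outside the window overlapped a wide siFra-1 peak. The 6 widest siFra-1-only peaks measured 550 to 750 bp, and the last was the closest to its start of 6 tied at 550 bp. NINJ2-AS1 had 750 bp (chr12:741252-742001) in an intron of NINJ2, a cell adhesion gene, with 1 AP-1 motif and the nearest siCTL peak 11850 bp away. ENSG00000254864 had 700 bp (chr11:7593252-7593951), with a siCTL peak 400 bp away, and ENSG00000288842 had 600 bp (chr21:46739402-46740001), with one 300 bp away. ENSG00000256306 had 600 bp (chr12:13679202-13679801), in an intron of the glutamate receptor gene GRIN2B. LINC02205 had 600 bp (chr15:70796852-70797451), 950 bp from a siCTL peak, and LINC01836 had 550 bp (chr19:782452-783001), 100 bp from one. LINC01836 itself had a siCTL peak of 200 bp in its window, so its siFra-1-only peak does not make it a gene of siFra-1 alone. Of the 93 wide siFra-1-only peaks, 23 had a siCTL peak within 1 kb. Other named lncRNAs of this group were taken after their values had been seen. They were LINC02870 (550 bp), LNCATV (550 bp in all), LINC02945 (550 bp in all) and STEAP1B-AS1 (350 bp in all). LINC01483 had 650 bp and was among the 7 overlapped outside the window.

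Of shared peaks that narrowed after siFra-1, the largest losses were 300 bp. ENSG00000287774 (chr3:30333452-30334201) had 750 bp in siCTL and 450 bp in siFra-1, and ENSG00000254204 had the same widths. At ENSG00000285517, in introns of CAPRIN2 and LINC00941 (chr12:30947802-30948301), 500 bp in siCTL stood against 200 bp in siFra-1. Both peaks there held the AP-1 motif printed above, and 2 further siFra-1 peaks of 100 bp lay downstream.

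The largest gains in width exceeded these losses. A siCTL peak of 100 bp corresponded to a siFra-1 peak of 1050 bp at ENSG00000259194 (chr15:51659352-51659451 in siCTL), in an intron of GLDN, to 950 bp at ENSG00000267096 (chr19:56182152-56182251), in an intron of the splicing factor gene U2AF2, and to 850 bp at LINC02977 (chr9:114800102-114800201). None of these 3 siCTL peaks held an AP-1 motif, and of the siFra-1 peaks the one at ENSG00000259194 held 1.

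**Figure D4:**
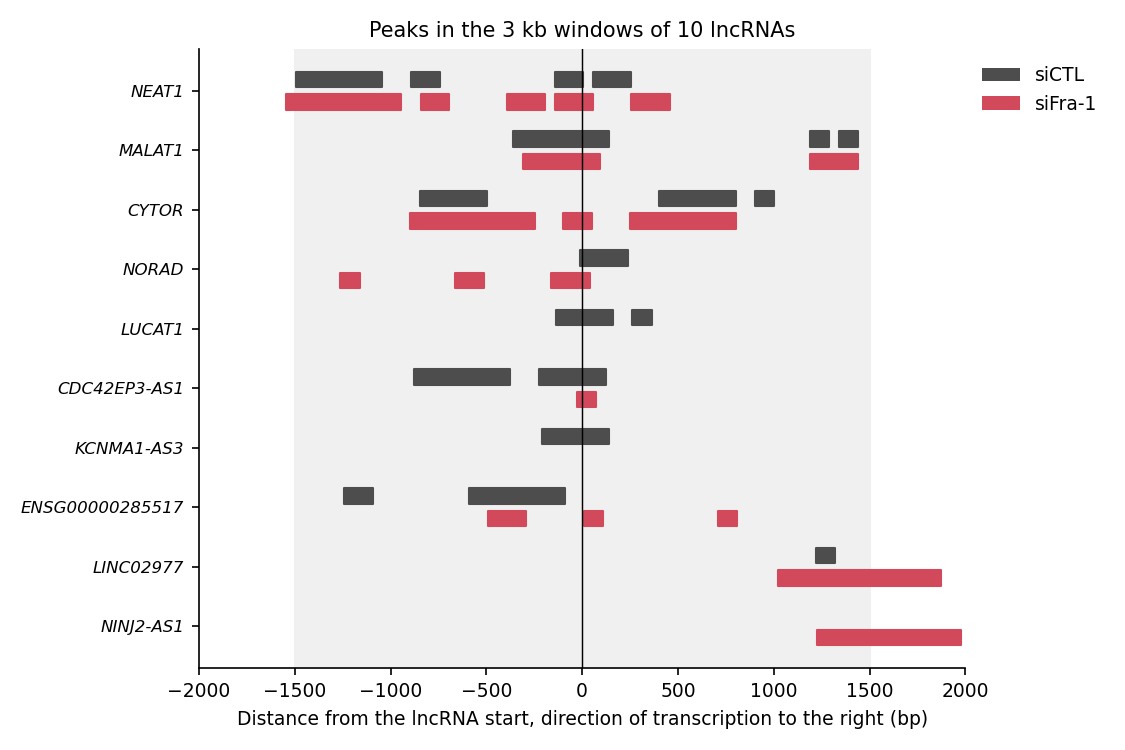
Peaks of siCTL and siFra-1 are drawn to scale for 10 lncRNAs by their distance in bp from the start site, transcription running to the right, with the 3 kb window shaded. MALAT1 has nearly the same peaks in both lists, LUCAT1 and KCNMA1-AS3 have peaks in siCTL only, and the siFra-1 peak at LINC02977 spans 850 bp around a siCTL peak of 100 bp.

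Among lncRNA genes with a symbol, 50 were reached in both lists and had a peak of 500 bp or over in at least 1 of them. Such peaks numbered 129 in siFra-1 and 52 in siCTL, so this choice favours genes with wider siFra-1 peaks, and no count of directions is given. The following were named after their values had been seen. SBF2-AS1 and LINC02709 start close to each other, and their windows held 650 and 750 bp of siCTL peaks and 1250 bp each of siFra-1 peaks. ABALON, antisense at BCL2L1, the gene of an inhibitor of apoptosis, had 900 bp and 1300 bp. LINC01730 had 550 bp and 1100 bp, LINC02989 had 700 bp and 1100 bp, and LINC01132 had 750 bp and 950 bp. At LINC01270, whose closest protein-coding start is that of the transcription factor gene CEBPB, 102 kb away, the siCTL peaks summed to 200 bp and the siFra-1 peak to 600 bp. LINC02869, 114 kb from the start of TGFB2, the gene of a transforming growth factor, had 350 bp and 650 bp. OLMALINC, near the fatty acid desaturase gene SCD, had 800 bp in both lists. LINC02098 had 900 bp in siCTL and 850 bp in siFra-1.

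The lncRNA gene with the most peaks was ROCK1P1, with 6 in each list, summing to 1500 bp in siCTL and 2450 bp in siFra-1. It is named for a pseudogene of ROCK1, and how reads that match both were placed was not tested. NEAT1 came next, with ENSG00000290057, a lncRNA gene just upstream of it with 4 siCTL and 5 siFra-1 peaks in its window. All 4 of those siCTL peaks and 4 of the siFra-1 peaks are the ones at NEAT1.

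Of 98 well-known lncRNAs listed by hand, 88 were annotated as lncRNA genes under their symbol, and 22 (25.0%) had a peak in at least 1 list, beside 12.8% of all lncRNA genes. The names were listed with earlier results of these data known, so no conclusion is drawn from the difference between these shares. Both lists reached 9, siCTL alone 9 and siFra-1 alone 4. CCAT1, LINC00152, LINC00673, SLNCR1, SNHG2, SNHG13, SNHG23 and SNHG24 were not matched by symbol, LINC00152 being an earlier name of CYTOR, and TUG1 and TINCR were not annotated as lncRNA genes.

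Of the well-known lncRNAs in both lists, 4 had 250 bp of peak or more. NEAT1, the scaffold of paraspeckles, had 4 siCTL peaks summing to 950 bp and 5 siFra-1 peaks summing to 1350 bp, among them a peak over the start in each list (150 bp in siCTL and 200 bp in siFra-1). MALAT1, a lncRNA of nuclear speckles, had 700 bp and 650 bp, with peaks of 500 bp and 400 bp over its start. CYTOR, a lncRNA raised in several cancers, had 850 bp in siCTL and 1350 bp in siFra-1. Its siCTL peak of 400 bp (chr2:87754702-87755101) held the 2 AP-1 motifs printed above and also reached the start of NCAL1, and in siFra-1 the corresponding peak measured 550 bp and held both motifs too. A siFra-1 peak of 150 bp lay over the start of CYTOR itself, where siCTL had none. NORAD, which sequesters PUMILIO proteins in the cytoplasm, had 250 bp and 450 bp.

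LUCAT1, a stress-induced lncRNA, had the widest peak among the well-known lncRNAs of siCTL alone. Its siCTL peaks of 300 bp (chr5:90610202-90610501) and 100 bp summed to 400 bp, the wider one lay over the start with its middle 12 bp away, and the nearest siFra-1 peak was 2200 bp away. The other well-known lncRNAs of siCTL alone had 100 to 200 bp. They were SNHG32 (200 bp), LINC00941 (150 bp) and, with 100 bp each, the imprinted genes H19 and MEG3, NKILA, an inhibitor of NF-kappa-B signalling, AFAP1-AS1, DLEU1 and LINC01116. The 4 of siFra-1 alone were SNHG4 (200 bp) and, with 100 bp each, PVT1, MIR17HG, the host of the miR-17 to miR-92 cluster, and LINC00862. Peaks of 100 bp are the width class of which 7.18% in siCTL and 9.06% in siFra-1 were shared.

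SNHG genes host small nucleolar RNAs in their introns, and 4 of 28 were reached in each list, or 14.3% (5.70 to 31.5), an interval that includes the shares of all lncRNA genes. Of these, 3 were reached in both lists. SNHG11 had 150 bp in siCTL and 100 bp in siFra-1, and these peaks overlapped. SNHG17 and SNHG25 had 200 bp in siCTL and 100 bp in siFra-1 each, at different places in the window. The peaks at all of these genes were under 250 bp wide. EPB41L4A-AS1 and PCAT6 had 100 bp in each list, also at different places, the peaks at EPB41L4A-AS1 directly adjoining each other.

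**Figure D5:**
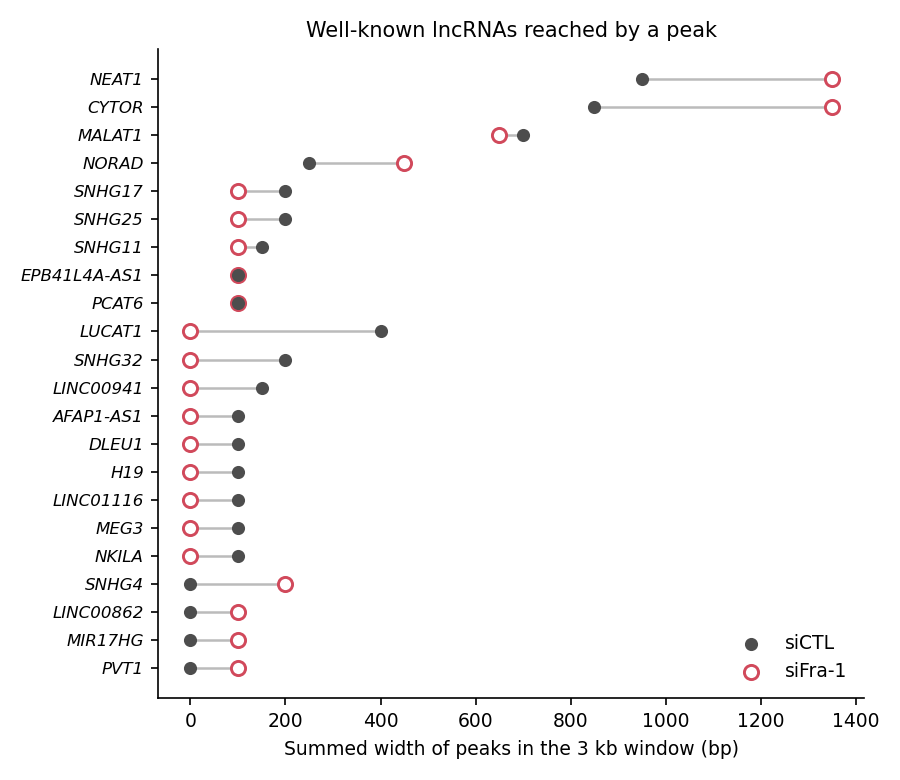
The summed width in bp of the peaks in the 3 kb window of each of the 22 well-known lncRNAs reached by a peak is plotted for siCTL (filled) and siFra-1 (open), ordered by whether both lists, siCTL only or siFra-1 only reached the gene. NEAT1 and CYTOR have the largest values, 1350 bp each in siFra-1, and LUCAT1 is the widest gene of siCTL alone at 400 bp.

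Along the genome the smaller number of lncRNA start-site peaks in siFra-1 was spread over chromosomes. The ratio of siFra-1 to siCTL numbers was below 1 on 21 of 23 chromosomes and its interval lay below 1 on 16 of them. It was lowest on chromosome 12, at 0.495 (0.352 to 0.691), 1 on chromosome 7, with 38 peaks in each list, and highest on chromosome 22, at 1.09 (0.658 to 1.82). Wide peaks were more numerous in siFra-1 on 20 chromosomes, equal on 2 and fewer on 1, chromosome 2, with 16 in siCTL and 14 in siFra-1. Both directions are those of the whole lists, whose ratio was 0.473 for all peaks and 1.64 for wide ones. Chromosome X had 8 siCTL and 6 siFra-1 peaks, too few to give a direction.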

How the data were processed

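p300/CBP ChIP-seq peak lists of 1 siCTL and 1 siFra-1 library were analysed, 2 of the 3 samples. According to the study's methods the authors aligned reads to hg19 with BWA-backtrack, whereas the submitters' processing notes name Bowtie2. The authors processed the reads with PASHA in bins of 50 bp, with scaling and background subtraction, and called peaks as runs above a threshold of 25, with a gap and a minimum run of 50 bp each. A further parameter in the names of the deposited lists, of unstated meaning, was set higher for siFra-1. The deposited values are chromosome, start and end alone. Starts were read as BED and raised by 1 for printing, which could be 1 bp off.

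Genes and sequences were taken from GENCODE release 44 lifted to GRCh37 and from that genome. Overlaps and motifs were counted by Python 3.11.15 functions that were tested on simulated data, using pandas 2.3.3, numpy 2.4.6, pysam 0.24.0, statsmodels 0.14.6 and scipy 1.17.1. Plots were drawn with matplotlib 3.10.9. Shares have Wilson intervals, their differences Newcombe intervals, ratios of numbers Clopper-Pearson intervals and width-weighted differences normal intervals, all at 95%. Read depth is unknown, so its precision cannot be given. A lncRNA was called divergent when it started within 5 kb of a protein-coding start on the opposite strand.

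Named were the lncRNAs at the 6 widest shared, siCTL-only and siFra-1-only peaks, the 3 largest narrowings and widenings (ties went to the smaller distance from peak middle to TSS), the 3 genes with the most peaks, and the listed well-known lncRNAs that were reached. Members, motifs and lists were chosen with earlier results of these data known. Alternatives changed peak width, window, TSS, gene set, overlap, merging and motif.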

Additional observations from a re-analysis of the deposited data

How the results depend on the processing

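Of 169 values recomputed for 15 results under 17 settings, 98 stayed within the interval or range set for them, 69 moved beyond it and 2 changed direction. The order is siCTL, then siFra-1. With peaks of at least 150 bp alone, the number ratio was 0.974, the share of the list 3.87% and 4.41%, the share of 250 bp and over 41.6% and 62.5%, sharing 47.5% and 47.4%, its excess over other peaks 14.8 points in siCTL, AP-1 22.2% and 20.7%, and genes 499, 492 and 262 in both. With at least 250 bp, the ratio turned to 1.46, the share of the list was 6.06% and 5.41%, sharing 68.8% and 46.7%, its excess -0.342 points (-6.91 to 5.61) in siCTL, a change of direction, and 5.37 points in siFra-1, AP-1 35.3% and 24.8%, and genes 226, 326 and 156. A 1 kb window gave list shares of 1.18% and 1.69%, wide shares of 15.3% and 30.2%, sharing of 26.0% and 35.6%, excesses of 16.8 and 16.9 points, AP-1 in 14.4% and 14.1%, and genes 908, 615 and 270. A 5 kb window gave list shares of 3.48% and 4.55%, and in siCTL sharing of 17.4% and an excess of 8.18 points. List shares were 2.96% and 3.80% with every transcript start, 3.22% and 4.29% with peaks at protein-coding start sites kept, 0.805% and 1.08% with symbol-bearing lncRNAs, which gave 569, 343 and 169 genes, and 2.32% in siCTL after merging peaks within 500 bp. Wide shares were 18.5% and 33.3% after merging, and 22.3% in siFra-1 with protein-coding start sites kept. Sharing was 11.8% and 18.8% when 50% of both peaks had to overlap, and 23.8% and 35.3% when a gap of 200 bp was allowed. The excess was 5.91 and 6.15 points at 50% overlap, 12.1 in siCTL with the gap, 12.8 in siFra-1 after merging, 3.91 and 2.89 with width weighting, and 7.49 in siCTL against protein-coding start sites. AP-1 was found in 8.76% of whole siCTL peaks, in 17.1% and 19.5% with 400 bp, and in 13.1% and 15.1% as TGANTCA.

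The AP-1 difference of 27.9 points between wide siCTL-only and siFra-1-only peaks ranged from 15.1 (peaks merged) to 45.5 (symbol-bearing lncRNAs) over alternatives chosen after seeing the data, each interval above zero. Requiring the middle of the peak in the window, also chosen then, moved none of the 15 results beyond its interval or range. The wide share has no value with peaks of at least 250 bp alone. No paired analysis was possible because each condition has 1 library, and no replicate could be left out. Without peak heights or read numbers, a peak missing from a list cannot be told from signal under the threshold.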
